A study of Mus musculus with 6 samples.

Results

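The steroid hormone nuclear receptors described here are 8 genes. They are Esr1 and Esr2 for estrogen receptors α and β, Pgr for the progesterone receptor, Nr3c1 and Nr3c2 for the glucocorticoid and mineralocorticoid receptors, and Esrra, Esrrb and Esrrg for the estrogen-related receptors α, β and γ. They were chosen by name as members of this receptor class, by a rule that holds no threshold on measured values, and are 8 of the 52636 genes in the deposited count table. A filter on low counts left 12284 genes for testing, and 5 of the 8 receptors passed it.

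Most receptors of this class wait in a complex with HSP90 and its co-chaperones until their hormone binds, then pair up, bind response elements in DNA and recruit coregulators. In the mammary gland, estrogen receptor α marks the hormone-sensing luminal cells, where it drives transcription of Pgr among other genes, and the progesterone receptor of the same cells sends paracrine signals for side branching. The glucocorticoid receptor acts with prolactin signalling on milk protein genes. Estrogen-related receptors bind no estrogen in spite of their name and are best known as regulators of mitochondrial metabolism.

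RNAseq was performed on cultured J110 and SSM3 cells, with 3 biological replicates of each. J110 is a mouse mammary tumour line from animals with a transgene in which the MMTV promoter, active in mammary epithelium, drives AIB1, the coactivator encoded by Ncoa3. SSM3 is a mammary tumour line from 129SvEv mice. Both media held foetal bovine serum, insulin and hydrocortisone, a ligand of the corticosteroid receptors. The medium of SSM3 cells also held L-glutamine, β-mercaptoethanol and transferrin, and its serum and CO2 were higher, so the effects of line and culture cannot be told apart. Each model was a single line, and the p-values measure only the spread between these libraries.

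Total counts ranged from 5209740 to 5416305 in the libraries labelled J110 and from 4200785 to 4792941 in those labelled SSM3. Levels are given as CPM, each count divided by the TMM-scaled library total. The floor of a line is reached by a gene when none of the 3 libraries holds more than 3 counts, and it lay between 0.578 and 0.668 CPM. Ncoa3, the gene of the J110 transgene, had counts of 110, 106 and 102 in the libraries labelled J110 and of 181, 199 and 186 in those labelled SSM3, and it shares exons with Sulf2 on the opposite strand. It was thus not higher in J110, and whether the counted 3′ end belongs to the transgene was not tested, so this gene does not check the labels. Genes of a ribosomal RNA locus held from 15.1% to 17.2% of the counts in J110 and from 0.779% to 1.27% in SSM3. J110 replicate 3 and SSM3 replicate 2 stood apart. In these, genes of the other line were at 0.285% and 0.355% of their level in that line, and at most 0.0938% in the other libraries. Values without both are given for Esr1, the estrogen receptor targets, Hspa8 and Atp5b, and for some other results in the closing section.

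The promoters of 7 of the 8 receptors could be read from RefSeq (GRCm38.p6), as 300 bases from 250 before to 50 after an annotated start. For the 3 receptors that were higher in libraries labelled SSM3, 1 promoter each is shown in lower case, with the sequence motif named beside it in capitals. Esr1 has a second promoter in the table (chr10:4709908-4710207, forward strand), which holds 0 matches to GGTCA and is not shown.
Pgr (chr9:8899583-8899882, forward strand, GC box GGGCGG): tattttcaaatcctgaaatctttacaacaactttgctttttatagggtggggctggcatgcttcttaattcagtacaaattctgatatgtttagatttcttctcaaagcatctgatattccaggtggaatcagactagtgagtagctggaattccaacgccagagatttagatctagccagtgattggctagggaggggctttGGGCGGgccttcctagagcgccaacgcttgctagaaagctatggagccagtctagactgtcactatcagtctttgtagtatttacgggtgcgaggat
Esr1 (chr10:4611739-4612038, forward strand, estrogen response arm GGTCA): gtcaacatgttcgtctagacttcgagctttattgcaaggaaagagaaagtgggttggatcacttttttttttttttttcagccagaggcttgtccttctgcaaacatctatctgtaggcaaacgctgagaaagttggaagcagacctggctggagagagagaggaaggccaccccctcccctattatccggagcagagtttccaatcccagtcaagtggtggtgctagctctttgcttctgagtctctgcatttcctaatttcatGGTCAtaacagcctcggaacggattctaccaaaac
Esrra (chr19:6921759-6922058, reverse strand, GC box read on the opposite strand): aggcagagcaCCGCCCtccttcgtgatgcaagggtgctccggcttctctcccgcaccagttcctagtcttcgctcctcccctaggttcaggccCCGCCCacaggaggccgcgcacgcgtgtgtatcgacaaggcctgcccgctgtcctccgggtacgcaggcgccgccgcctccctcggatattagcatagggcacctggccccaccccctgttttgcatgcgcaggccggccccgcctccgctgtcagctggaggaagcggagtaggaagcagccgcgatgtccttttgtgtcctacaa
The GC box, a site of SP1 family factors, was searched as GGGCGG on both strands and was present in 35.7% of 32851 RefSeq promoters. It was present in 5 of the 12 receptor promoters, those of Esrra, Esrrg, Nr3c2 and Pgr, a share near that of all promoters. Esrra had 2 of them and Pgr 1. The GC content was 66.0% for Esrra, 46.3% for the Esr1 promoter shown, 59.3% for its second promoter and 43.7% for Pgr, beside a median of 52.7% over all promoters.

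Several hormone response motifs were searched on both strands in the same windows. The full estrogen response element GGTCANNNTGACC was present in 0.0700% of all promoters and in none of the 12 receptor promoters. Its single arm GGTCA, which is also contained in the next motif, was present in 40.5% of all promoters and in 5 of the 12, those of Esr1, Esr2, Esrrb, Esrrg and Nr3c2. The estrogen-related receptor element TCAAGGTCA was present in 0.423% of all promoters and in 0 of the 12, as was the element of the corticosteroid and progesterone receptors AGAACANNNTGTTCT, at 0.00913% of all promoters. Its arm AGAACA was present in 19.0% of all promoters and in 1 of the 12, that of Esrrb. TATAAA was present in 13.6% of all promoters and in 2 of the 12, in Esrrg and Pgr. These matches describe the letters of these windows only.

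Pgr, Esr1 and Esrra were higher and Nr3c1 was lower in the libraries labelled SSM3, and Nr3c2 did not pass the test. Of the 5 receptors tested, 4 passed an adjusted p of 0.05 in edgeR's quasi-likelihood test with Benjamini-Hochberg adjustment, beside 77.9% of all genes tested, so that this count is near the background between these lines. By direction, 3 were higher and 1 was lower in SSM3, beside 38.6% and 39.2% of all genes tested. In a test for a change beyond 2-fold (edgeR's glmTreat), 3 of the 5 were called, beside 34.8% of all genes. The J110 and SSM3 libraries did not overlap for 4 of the 5, beside 79.6% of all genes. Esr2, Esrrb and Esrrg were at the floor in both lines and were not tested.

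**Figure D1:**
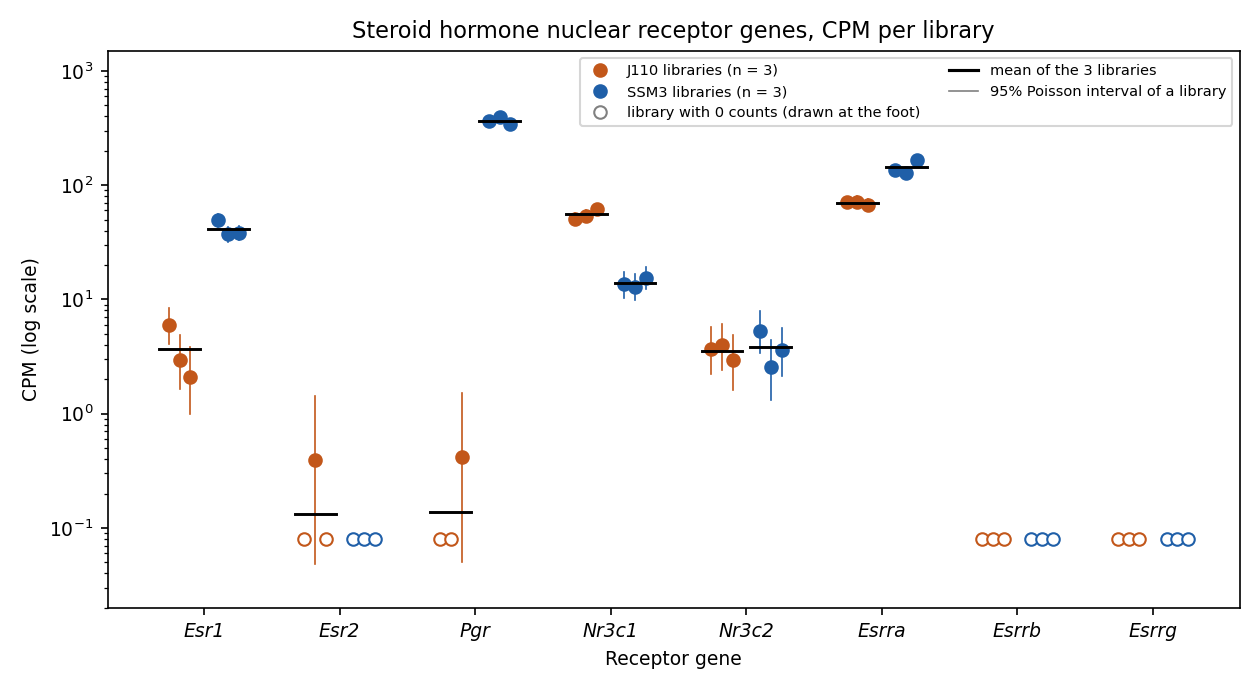
Level of each receptor gene in each library in CPM on a log scale, with J110 in orange and SSM3 in blue (n = 3 each), thin lines for the 95% Poisson interval of a library and black bars for the mean. Pgr and Esr1 separate the lines most widely, Nr3c1 lies the other way, Nr3c2 overlaps, and open circles at the foot mark libraries with 0 counts.

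Esr1 (ENSMUSG00000019768, mm10 chr10:4611593-5005614, forward strand) encodes estrogen receptor α, the receptor that endocrine therapy targets. Its counts were 31, 15 and 10 in J110 replicates 1 to 3 and 222, 175 and 193 in SSM3 replicates 1 to 3. Every SSM3 library was above every J110 library, and J110 replicate 1 was the highest of its line. The mean level was 3.68 ± 2.04 CPM in J110 against 41.7 ± 6.76 CPM in SSM3 (SD, n = 3 each). The fold difference was 11.1 (95% interval 7.81 to 15.8), a log2 fold change of 3.48 with a standard error of 0.24 (edgeR adjusted p = 1.16e-09). Without J110 replicate 1 the log2 fold change was 4.01, and without J110 replicate 3 and SSM3 replicate 2 it was 3.28.

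Esr1 was low in J110 and is set beside genes chosen as high in SSM3 and near absent in J110. Over 33 genes with at least 200 CPM in SSM3 and a median of at most 1 CPM in J110, the summed level in J110 replicates 1, 2 and 3 was 0.0603%, 0.0491% and 0.285% of that in SSM3. Esr1 was at 14.3%, 7.12% and 5.01% of its SSM3 level in the same libraries. At the share of those genes, Esr1 would have had 0.13, 0.10 and 0.57 counts, beside the 31, 15 and 10 seen. Esr1 did not meet the choice that defined those genes, so its higher share follows largely from that choice. The source of the Esr1 counts was not tested. In bulk RNA, fewer cells with the transcript and less transcript per cell cannot be told apart. Esr2 (ENSMUSG00000021055, chr12:76120419-76177259, reverse strand), for estrogen receptor β, had 2 counts in J110 replicate 2 and 0 counts in the other 5 libraries.

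**Figure D2:**
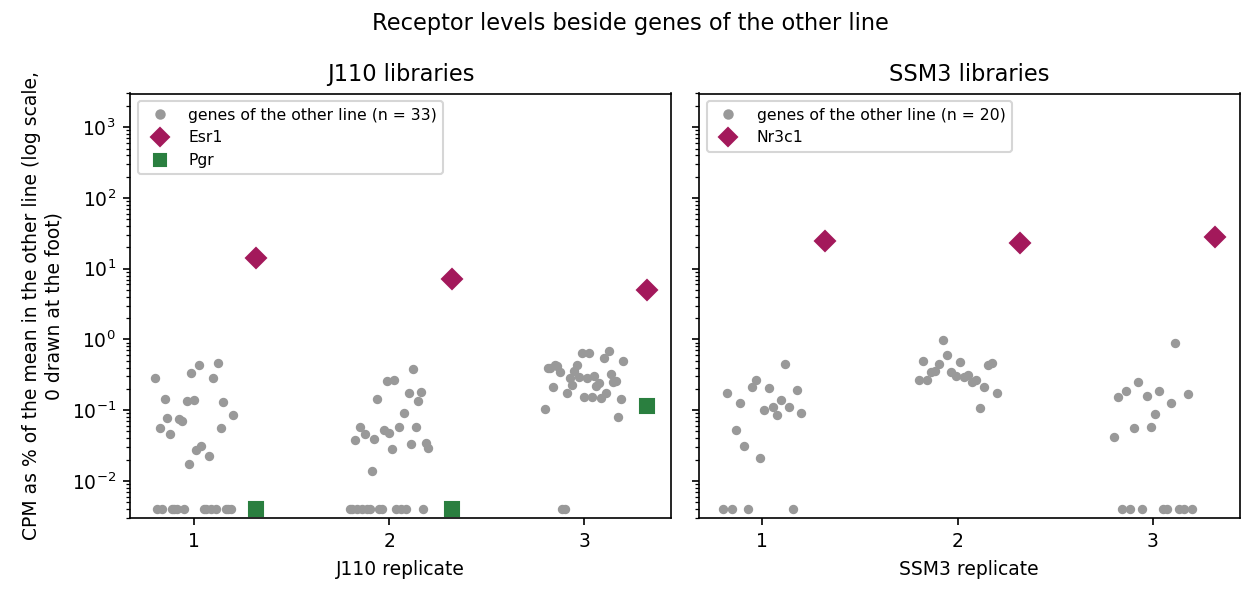
Level of Esr1 and Pgr in J110 libraries (left) and of Nr3c1 in SSM3 libraries (right) as a percentage of the mean CPM in the other line, on a log scale. Grey points are the 33 or 20 genes chosen for at least 200 CPM in the other line and a median of at most 1 CPM in the line shown. A value of 0 is drawn at the foot. Esr1 and Nr3c1 did not meet this choice and lie above all grey points in every library. Pgr meets it and lies among them.

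Pgr (ENSMUSG00000031870, chr9:8899833-8968611, forward strand), a classical estrogen target as well as a receptor, separated the lines more widely. SSM3 replicates 1, 2 and 3 gave 1638, 1859 and 1719 counts, and J110 replicates 1, 2 and 3 gave 0, 0 and 2. The mean level was 367 ± 26.4 CPM in SSM3 and 0.139 ± 0.241 CPM in J110, which was at the floor (SD, n = 3 each). The ratio of the summed levels, SSM3 over J110, was 2756 with a counting interval from 763 to 22767 (edgeR adjusted p = 3.51e-16). Both J110 counts came from replicate 3, the library with most counts on genes of the other line. At the share of those genes 5.01 Pgr counts would have been seen there, so Pgr was not detectable above that share in J110. Without J110 replicate 3 the gene had 0 counts in J110 and the fitted log2 fold change, which depends on the prior count in such a case, went from 11.18 to 13.81. The study itself examined Pgr, with Cdh1, Ctsd and Trim25, in these samples, as genes known from earlier work to be induced by estrogen.

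Nr3c1 (ENSMUSG00000024431, chr18:39410545-39519421, reverse strand), for the glucocorticoid receptor, was the 1 receptor that was lower in the libraries labelled SSM3. Its counts were 262, 274 and 294 in J110 and 61, 61 and 78 in SSM3. The lines did not overlap, and the spread within each was small beside the gap between them. The mean level was 55.4 ± 5.51 CPM in J110 against 14.0 ± 1.34 CPM in SSM3 (SD, n = 3 each), 3.93-fold lower in SSM3. The log2 fold change was -1.98 with a standard error of 0.13 (edgeR adjusted p = 6.09e-10), and it was also called beyond 2-fold (adjusted p = 7.25e-07 from glmTreat in edgeR). In SSM3 replicates 1, 2 and 3, Nr3c1 stood at 24.5%, 23.4% and 28.0% of its J110 level. The 20 genes chosen as high in J110 and near absent in SSM3 stood at 0.0923%, 0.355% and 0.0938% of theirs.

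Nr3c2 (ENSMUSG00000031618, chr8:76899442-77245012, forward strand), for the mineralocorticoid receptor, had counts of 19, 20 and 14 in J110 and of 24, 12 and 18 in SSM3. The libraries of the lines were interleaved, with both the highest and the lowest value in SSM3. The mean level was 3.51 ± 0.533 CPM in J110 against 3.82 ± 1.41 CPM in SSM3 (SD, n = 3 each). The log2 fold change was 0.11 with a 95% interval from -0.56 to 0.78 (edgeR adjusted p = 0.759). That interval spans 0.678-fold to 1.72-fold, and the smallest difference that could be detected was not computed. Its sign turned without J110 replicate 3 (-0.012) and without SSM3 replicate 1 (-0.19).

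Esrra (ENSMUSG00000024955, chr19:6910977-6921813, reverse strand), for estrogen-related receptor α, gave counts of 366, 363 and 324 in J110 and of 605, 600 and 841 in SSM3. All SSM3 libraries were higher, with SSM3 replicate 3 above the other two. The mean level was 70.0 ± 2.15 CPM in J110 against 143 ± 21.3 CPM in SSM3 (SD, n = 3 each). The log2 fold change was 1.03 with a standard error of 0.10 (edgeR adjusted p = 1.03e-07), and a change beyond 2-fold was not called (adjusted p = 0.394 from glmTreat in edgeR). The last 73 bases of Esrra at its 3′ end (chr19:6910977-6911049) are shared with the 3′ end of Trmt112 on the opposite strand. Trmt112 was also higher in SSM3, at 101 ± 4.79 CPM in J110 against 253 ± 19.2 CPM in SSM3 (SD, n = 3 each). The strand setting of the counting is not given in the sources used here, so reads of this shared end cannot be told apart and the Esrra value is uncertain. Esrrb (ENSMUSG00000021255, chr12:86361117-86521628) and Esrrg (ENSMUSG00000026610, chr1:187608791-188214885) had 0 counts in all 6 libraries.

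Markers of the cell types that a mammary culture could hold also moved with the line. The 8 epithelial markers summed to between 2677 and 2766 CPM in J110 and between 12624 and 13900 CPM in SSM3, with 7 of them higher and Krt18 lower in SSM3. Krt8 and Krt18 made up most of the J110 sum, at 1275 ± 37.9 and 1430 ± 18.1 CPM in J110 against 2270 ± 202 and 970 ± 37.3 CPM in SSM3 (SD, n = 3 each). Epcam, a surface marker of epithelium, was at 0.681 ± 0.681 CPM in J110 against 507 ± 24.8 CPM in SSM3. The 6 fibroblast markers summed to between 1.54 and 4.38 CPM in J110 and between 1336 and 1480 CPM in SSM3. Dcn alone carried that sum, with Col1a1, Col1a2, Col3a1 and Lum at 0 counts in SSM3. The 4 endothelial markers summed to between 158 and 181 CPM in J110, nearly all of it Cdh5, and to between 0 and 0.425 CPM in SSM3. The 8 leukocyte markers summed to between 29.2 and 37.0 CPM in J110 and between 14.7 and 16.99 CPM in SSM3, with Ptprc at 0 in J110 and Adgre1 and Itgam at 0 in both lines. Csf1r and Cd68 carried most of that sum, at 14.3 ± 1.94 and 18.5 ± 3.79 CPM in J110 against 14.2 ± 1.12 and 1.42 ± 0.510 CPM in SSM3 (SD, n = 3 each), and Cd68 was lower beyond 2-fold. Csf1r shares exons with Hmgxb3 on the opposite strand and is uncertain. The 5 erythroid markers summed to at most 2.004 CPM in any library. The part of these markers in the receptor differences was not tested.

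The genes most like Esr1 over the 6 libraries by Pearson correlation of log2 CPM were Bag6 (r = 0.999), Atp2c2 (r = 0.998) and Prex1 (r = 0.997), and 113 of 9831 genes searched had an r over 0.99. For Pgr, the most similar were Mageh1, Tmprss6 and Psd4, and 1053 of 9831 genes had an r over 0.99. These values are a description only, since the 6 points fall into 2 lines.

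Known targets of estrogen receptor α differed between the lines in both directions. Of 24 listed targets 18 were tested, and all 18 were called, 11 higher and 7 lower in the libraries labelled SSM3, beside 77.9% of all genes called, 38.6% higher and 39.2% lower, with a median log2 fold change of 0.64 beside -0.014 for all genes tested. Cdh1, Ctsd and Trim25, which the study examined in these samples, are among the 11. Beyond 2-fold, 7 were higher and 5 lower, beside 34.8% of all genes in either direction. Without J110 replicate 3 and SSM3 replicate 2, 15 of the 18 were called, beside 71.6% of all genes in that fit. Myb, a transcription factor gene released from an elongation block by estrogen, had 0 counts in all J110 libraries and 412, 439 and 532 counts in SSM3, at least 155-fold higher. Krt19, a luminal keratin, was at 18.6 ± 9.83 CPM in J110 against 7412 ± 363 CPM in SSM3 (SD, n = 3 each, log2 fold change 8.65).

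Among the targets that were lower, Igfbp4 and Ccnd1 had the largest changes. Igfbp4, which binds insulin-like growth factors, was at 111 ± 8.60 CPM in J110 against 0.579 ± 0.476 CPM in SSM3 (log2 fold change -7.56, and -8.38 without SSM3 replicate 1). Ccnd1, for cyclin D1, was at 1880 ± 168 CPM in J110 against 206 ± 17.2 CPM in SSM3 (log2 fold change -3.19). It shares 1100 exonic bases with LTO1 on the opposite strand, so its value is uncertain. In J110, LTO1 had 7330, 6508 and 6840 counts beside 9696, 8699 and 9849 for Ccnd1. In SSM3, LTO1 had 877, 854 and 909 counts beside 1015, 921 and 990. Greb1, a cofactor of estrogen receptor α and a widely used target, was named after its values were seen. It had counts of 18, 32 and 26 in J110 and of 5, 2 and 2 in SSM3, lower in SSM3 by a log2 fold change of -2.95 (edgeR adjusted p = 1.26e-05). Igf1r, the receptor for insulin-like growth factor, also named afterwards, had a log2 fold change of -2.46.

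Most listed targets of the progesterone receptor were too low to test. Of 12 genes 4 were tested and called, 3 higher and 1 lower, beside 77.9% of all genes called. Their median log2 fold change was 6.02. Prlr, Wnt4 and Bmp2 passed the filter only through the line where they were high, so their calls and this median follow largely from it. With at least 10 counts required in every library, 1 was tested and called. Prlr, the prolactin receptor, had counts of 0, 1 and 5 in J110 and of 2489, 2910 and 3036 in SSM3, a fitted log2 fold change of 10.44 that became 12.22 without J110 replicate 3 and 9.85 without J110 replicate 1. Wnt4, a paracrine signal for side branching, had counts of 8, 6 and 4 in J110 and of 1071, 1099 and 1256 in SSM3 (log2 fold change 7.62). Stat5a was at 5.22 ± 1.60 CPM in J110 against 113 ± 3.41 CPM in SSM3 (SD, n = 3 each), and it shares 72 exonic bases with Stat3. Bmp2 had counts of 34, 29 and 36 in J110 and of 0, 0 and 1 in SSM3. Tnfsf11, for RANKL, the paracrine mediator of progesterone, had 0 counts in J110 and 0, 2 and 0 in SSM3, and Calca had none in any library. Stat5a, Bmp2, Tnfsf11 and Calca were named after their values were seen.

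Glucocorticoid receptor targets also differed in both directions, beside the lower Nr3c1 of the libraries labelled SSM3. Of 18 listed genes 14 were tested, of which 5 were higher, 7 were lower and 2 did not pass, with a median log2 fold change of -0.27. The 12 called stand near the 77.9% of all genes. Beyond 2-fold, 5 were lower and 1 was higher, beside 34.8% of all genes in either direction. Fkbp5, a co-chaperone that restrains the receptor and is induced by it, was at 145 ± 10.6 CPM in J110 against 35.8 ± 6.06 CPM in SSM3 (log2 fold change -2.02). Anxa1, an anti-inflammatory protein induced by glucocorticoids, was at 720 ± 49.7 CPM in J110 against 77.9 ± 16.4 CPM in SSM3 (log2 fold change -3.21). Per1, a clock gene, had a log2 fold change of -1.12. Klf9, Dusp1 and Errfi1, named after their values were seen, had log2 fold changes of -1.35, -1.58 and -1.36.

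Other targets of the same receptor were higher in SSM3. Sgk1, a kinase induced by gluco- and mineralocorticoids, was at 73.6 ± 2.27 CPM in J110 against 256 ± 22.4 CPM in SSM3 (log2 fold change 1.80). Mt1, a metallothionein that also responds to metals, was at 801 ± 9.49 CPM in J110 against 1543 ± 7.27 CPM in SSM3 (SD, n = 3 each, log2 fold change 0.95). The remaining genes that were higher, Mt2, Ddit4 and Nfkbia, had log2 fold changes between 0.55 and 0.82, and Mt2 shares 432 exonic bases with Gm45774. Cebpb and Cebpd did not pass, with log2 fold changes of -0.14 and 0.060, and each shares exonic bases with a gene on the opposite strand. All 5 were named after their values were seen. Tsc22d3, for GILZ, was at 53.3 ± 6.90 CPM in J110 against 40.4 ± 5.89 CPM in SSM3 (edgeR adjusted p = 0.0080), a call lost with library size only (adjusted p = 0.119) and without J110 replicate 2 (adjusted p = 0.0529).

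**Figure D3:**
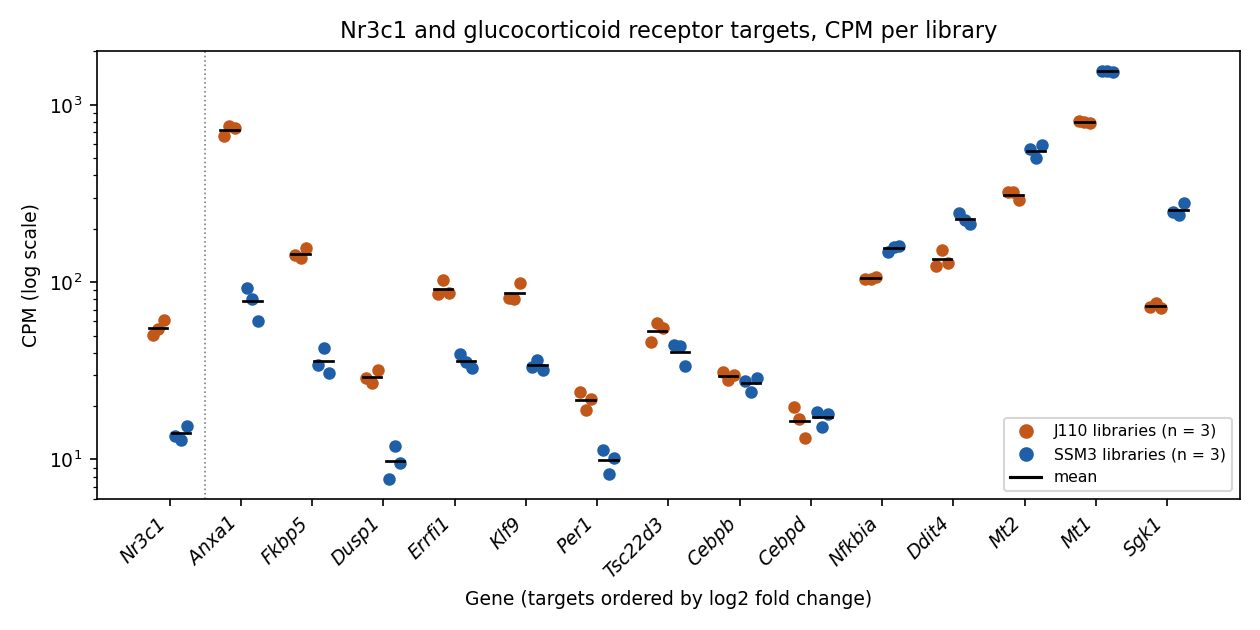
Level of Nr3c1 and of the 14 glucocorticoid receptor targets tested, in CPM on a log scale for each library, with J110 in orange, SSM3 in blue and black bars for the mean of 3. Targets are ordered by log2 fold change, and those from Anxa1 to Tsc22d3 are lower in SSM3 as Nr3c1 is, whereas those from Nfkbia to Sgk1 are higher.

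Mineralocorticoid receptor targets included the subunits of the epithelial sodium channel. Of 10 listed genes 7 were tested and called, 5 higher and 2 lower, beside 77.9% of all genes called, with a median log2 fold change of 1.80. Scnn1a had counts of 0, 1 and 0 in J110 and of 147, 173 and 159 in SSM3. Scnn1g had counts of 0, 0 and 1 in J110 and of 98, 105 and 79 in SSM3. Scnn1a and Scnn1g both passed the filter only through SSM3, where they were high. The ratios of summed levels were 506 for Scnn1a (counting interval 90.4 to 20038) and 298 for Scnn1g (53.1 to 11814). The 2 lower genes, Per1 and Tsc22d3, and the higher Sgk1 are also among the glucocorticoid receptor targets.

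Targets of the estrogen-related receptors differed in both directions, beside the higher Esrra. Of 18 listed genes 15 were tested, 3 were higher, 6 were lower and 6 did not pass, beside 38.6% higher and 39.2% lower of all genes, with a median log2 fold change of -0.033. Cox5b, a subunit of cytochrome c oxidase, was at 28.5 ± 2.88 CPM in J110 against 212 ± 27.0 CPM in SSM3 (log2 fold change 2.90). Vegfa and Acadm, for a growth factor of vessels and a fatty acid oxidation enzyme, had log2 fold changes of -2.75 and -1.37. Atp5b, a subunit of ATP synthase, was at 905 ± 23.2 CPM in J110 against 885 ± 41.2 CPM in SSM3 (edgeR adjusted p = 0.656). Ppargc1a and Ppargc1b, 2 coactivators of these receptors, were named after their values were seen and ran in opposite directions. Ppargc1a was at 8.27 ± 1.65 CPM in J110 against 27.4 ± 3.36 CPM in SSM3 (log2 fold change 1.73). Ppargc1b was too low to be tested, with 12, 9 and 14 counts in J110 and 2, 3 and 1 in SSM3.

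The chaperones that hold the receptors ready for hormone all passed the filter. Of 16 genes 5 were higher, 7 were lower and 4 did not pass, so that the 12 called stand near the 77.9% of all genes, with a median log2 fold change of -0.10. The immunophilins Fkbp4 and Fkbp5, which compete for the same place on HSP90, moved apart. Fkbp4 was at 104 ± 7.61 CPM in J110 against 422 ± 7.03 CPM in SSM3 (log2 fold change 2.02), beside the -2.02 of Fkbp5. Stip1, which links HSP70 to HSP90, had a log2 fold change of 1.22. Hsp90ab1, the constitutive HSP90, was at 3520 ± 86.5 CPM in J110 against 3663 ± 113 CPM in SSM3 (edgeR adjusted p = 0.445), and it was called higher with library size only (adjusted p = 0.0036). Hspa8 had a log2 fold change of -0.76 (edgeR adjusted p = 0.0083), a call lost without J110 replicate 1 (adjusted p = 0.0598) and without J110 replicate 3 and SSM3 replicate 2 together (adjusted p = 0.103). How reads shared with copies of this gene were counted was not tested.

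Of 19 listed coregulators and pioneer factors 17 were tested, and 10 were higher, 2 were lower and 5 did not pass, beside 77.9% of all genes called, 38.6% higher and 39.2% lower, with a median log2 fold change of 0.53. Gata3, a luminal transcription factor that opens chromatin for estrogen receptor α, had counts of 14, 17 and 18 in J110 and of 4790, 5210 and 4725 in SSM3 (log2 fold change 8.30). Foxa1, another pioneer factor of this receptor, was at 63.2 ± 3.02 CPM in J110 against 236 ± 11.9 CPM in SSM3 (log2 fold change 1.90). The acetyltransferase gene Crebbp and the coactivator gene Rbm39 had log2 fold changes of -0.83 and -0.46. Ncoa3 was among the higher genes, with a log2 fold change of 0.91, whereas Ncoa1 and Ncoa2 of the same coactivator family did not pass (-0.12 and -0.19). These 3 were named after their values were seen.

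Genes that make or break down steroids included several without counts. Of 25 genes 1, Sts, was not matched to the table and 12 were tested, of which 3 were higher, 4 were lower and 5 did not pass, beside 77.9% of all genes called, with a median log2 fold change of -0.032. Cyp19a1, for aromatase, had 0 counts in every library. Hsd11b1 and Hsd11b2, which activate and inactivate glucocorticoids, had at most 4 counts in any library. H6pd, the enzyme that feeds Hsd11b1 with NADPH, was at 45.2 ± 2.30 CPM in J110 against 7.37 ± 1.76 CPM in SSM3 (log2 fold change -2.62). These names were chosen after the values were seen.

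Hsd17b11, a 17β-hydroxysteroid dehydrogenase, had counts of 265, 232 and 232 in J110 and of 1, 0 and 0 in SSM3, a ratio of J110 over SSM3 of 690 (counting interval 123 to 27280). Cyp1b1, which hydroxylates estrogens, was at 27.4 ± 1.44 CPM in J110 against 1.17 ± 0.634 CPM in SSM3 (log2 fold change -4.49). Hsd17b7 and Hsd17b10 were higher in SSM3, with log2 fold changes of 0.74 and 0.57. Hsd17b12 was at 182 ± 2.01 CPM in J110 against 202 ± 2.51 CPM in SSM3 (SD, n = 3 each), and did not pass (edgeR adjusted p = 0.0537), whereas it was called with limma-voom (adjusted p = 0.0333) and with library size only (log2 fold change 0.33, adjusted p = 0.00048).

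Among 9 receptors that sense steroids at membranes, 6 were tested, and 3 were higher and 3 lower, beside 77.9% of all genes called, with a median log2 fold change of -0.20. Pgrmc2 was at 97.0 ± 5.79 CPM in J110 against 183 ± 15.8 CPM in SSM3 (log2 fold change 0.92), and its paralog Pgrmc1 had a log2 fold change of -0.68. Nenf had one of 0.28. Gper1, a G protein-coupled estrogen receptor named after its values were seen, had at most 3 counts in any library.

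**Figure D4:**
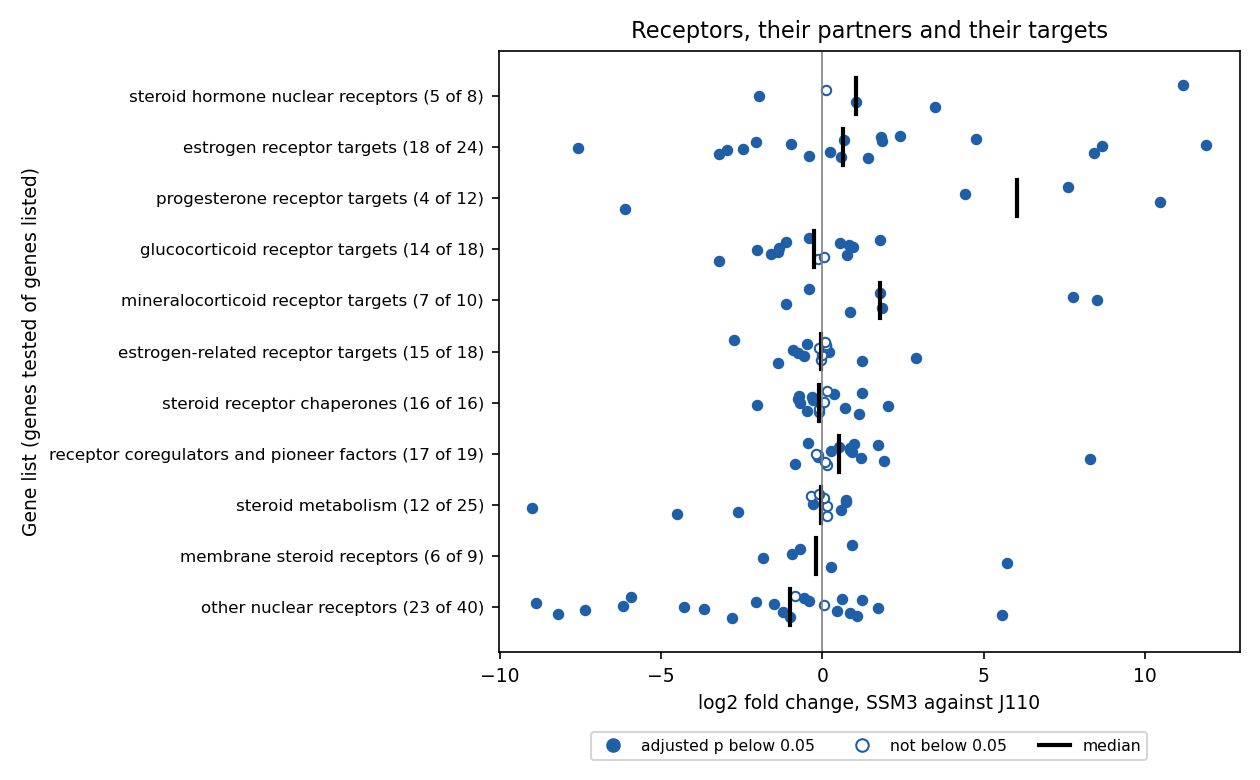
Log2 fold change, SSM3 against J110, of each tested gene in the receptor set and in the 10 lists of partners, targets and relatives. Filled points have an edgeR adjusted p below 0.05, open points do not, and black bars are medians, which lie between -1.01 for other nuclear receptors and 6.02 for the 4 progesterone receptor targets.

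The other nuclear receptors of the superfamily were set beside the steroid receptors. Of 40 listed genes 23 passed the filter and 9 had no count in any library. Among the 23, 7 were higher, 14 were lower and 2 did not pass, beside 38.6% higher and 39.2% lower of all genes, with a median log2 fold change of -1.01. Pparg, a regulator of fat cell differentiation, had counts of 273, 226 and 180 in J110 and of 0, 1 and 0 in SSM3, a ratio of J110 over SSM3 of 642 (counting interval 115 to 25411). Nr1h5, a relative of the bile acid receptor, had counts of 155, 129 and 141 in J110 and of 0, 1 and 0 in SSM3. Nr2f2, for COUP-TFII, named after its values were seen, was at 161 ± 17.3 CPM in J110 against 12.8 ± 1.80 CPM in SSM3 (SD, n = 3 each). In the other direction, Nr2f6 was at 42.3 ± 1.48 CPM in J110 against 139 ± 19.9 CPM in SSM3 (log2 fold change 1.72), and it shares 1622 exonic bases with Ocel1, which had more counts in every library. Rxra, the partner of many receptors outside the steroid class, had a log2 fold change of 1.24.

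**Figure D5:**
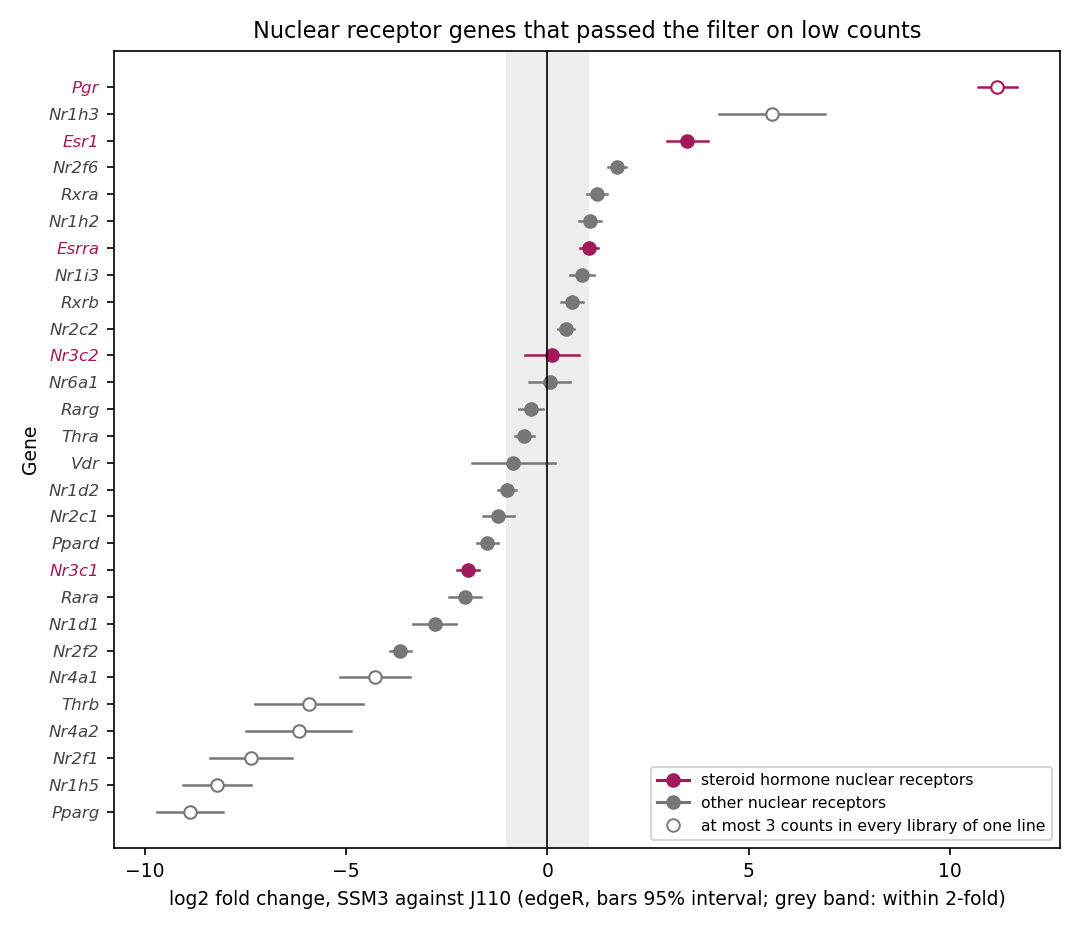
Log2 fold change with 95% interval from edgeR, SSM3 against J110, for the 5 steroid hormone nuclear receptors (magenta) and the 23 other nuclear receptors (grey) that passed the filter, with changes within 2-fold in the grey band. Open points have at most 3 counts in every library of 1 line, where the fitted value depends on the prior count. Pgr lies at the top, Esr1 below Nr1h3, and Nr3c1 among the lower genes.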

How the data were processed

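RNA of 3 J110 and 3 SSM3 cultures was sequenced from its 3′ ends with the QuantSeq kit. Per the submitters' processing notes, the authors used bcl2fastq (2.17.1.14), cutadapt (2.1), HISAT2 (2.0.4) on mm10 and featureCounts of Subread (2.0.0), and deposited raw counts for 52636 genes without normalisation. The strand setting is not given in the sources used here. Where all exons of a gene lay inside those of an opposite-strand gene (98 genes with 10 counts or more), the inner gene exceeded the outer one in 0 cases, so genes that share exons are uncertain. Symbols came from GENCODE M21 for 52489 identifiers (99.7%).

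The receptors and gene lists were chosen with earlier results of these data known, and lists hold textbook partners and targets. Groups follow the sample labels. Low counts were removed by filterByExpr, libraries were scaled by TMM, and the lines were compared by quasi-likelihood F-tests in edgeR 4.0.16 (R 4.3.3, limma 3.58.1) with Benjamini-Hochberg adjustment over 12284 genes and a threshold of 0.05. Standard errors are the log2 fold change divided by the square root of F, and log2 CPM used a prior count of 2. Intervals of summed counts are exact and cover counting error only. The biological coefficient of variation was 8.30%. In each list the genes named are the 2 largest changes in each direction with at least 10 CPM on average in 1 line and the gene with the highest mean CPM. Some genes chosen by this rule are not reported here. Where the text says so, a gene was named after its value was known. In a simulation of 12284 genes, with 11974 tested, 185 of 200 changed genes (92.5%) were recovered, and 9 of 194 genes called (4.64%) were unchanged. With 200 genes changed, it does not show how scaling and error rate behave where most genes differ, as between these lines. Alternatives were DESeq2 (1.42.0), limma-voom, glmTreat, other scalings, filters and depths, the replicate number as a block, and fewer libraries. Other receptors of this class, the flow cytometry, the staining and the tamoxifen experiments are not analysed here.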

Additional observations from a re-analysis of the deposited data

How the results depend on the processing

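The counts of calls, the tested receptors and the list genes chosen by the naming rule were recomputed under up to 17 alternatives, and genes named after their values were seen were not. The number of receptors called was 4 under each except glmTreat (3) and a minimum of 10 counts in every library (3, since Pgr was then not tested). Esr1 ranged from 3.20 to 4.01, Pgr from 10.63 to 13.81, Nr3c1 from -2.06 to -1.80 and Esrra from 0.91 to 1.21 on the log2 scale. Esrra lost its call only with glmTreat (1.03, adjusted p = 0.394), by construction of a test beyond 2-fold. Nr3c2 reversed without J110 replicate 3 (-0.012) and without SSM3 replicate 1 (-0.19), and leaving out 1 library at a time gave values from -0.19 to 0.33. With glmTreat the counts of genes called were 4272 of all genes, 12 estrogen, 4 estrogen-related, 6 glucocorticoid and 4 mineralocorticoid receptor targets, 2 membrane receptors, 13 other nuclear receptors, 3 coregulators, 3 steroid metabolism genes and 3 chaperones. At least 10 counts in every library left 14 other nuclear receptors tested and 13 called, and 1 progesterone receptor target tested and called, beside 75.2% of 9686 genes called, so fewer were called mainly because fewer were tested. Among 40 named list genes, 648 of 670 values kept direction and side of the threshold, 16 lost and 3 gained a call (Hsd17b12 under limma-voom and library size only, Hsp90ab1 under the latter), and Atp5b, not called, had values from -0.064 to 0.0088 with 1 library left out and reversed with library size only (0.14), without SSM3 replicate 2 (0.0088) and without both libraries that stood apart (0.016). Some genes with at most 3 counts in each library of 1 line moved when the library with the count was left out, for example Scnn1a to 10.35 without J110 replicate 2, Scnn1g to 9.60 without J110 replicate 3, Hsd17b11 to -10.91 without SSM3 replicate 1 and Pparg to -10.79 without SSM3 replicate 2. The medians of the receptor set and of the 10 lists of partners, targets and relatives were equal with genes at the floor set at it. DESeq2 called 8948 genes and limma-voom 9558. Without both libraries that stood apart, Pgr was at 13.77 and Nr3c1 at -1.84. In that fit 5 of 6 membrane receptors, 8 of 15 estrogen-related and 13 of 15 glucocorticoid receptor targets were called. So were 6 of 12 steroid metabolism genes, beside 71.6% of all genes. Over all genes tested, the median log2 fold change was -0.014 with TMM and 0.16 with library size only. The calls were 4746 higher and 4820 lower with TMM, against 5373 higher and 4140 lower with library size only. The shares of all genes by direction thus depend on the scaling.

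With the replicate number as a block, 9481 genes were called, 9431 of them shared, and 4 receptors. Deviations of same-numbered libraries correlated at 0.012, 0.015 and 0.027, so the numbers were taken as names only. A receptor with at most 3 counts in each library, or 0.668 CPM in the smallest, was not detectable at this depth.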
